A study of Dicentrarchus labrax with 35 samples.

Results

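Gonads of slow-growing European sea bass (Dicentrarchus labrax) were compared before histological signs of sex differentiation and, in other fish, as testes. The paper places the earlier stage after the first molecular signs of sex differentiation. Group S held the undifferentiated gonads of 8 fish at 133 days post fertilization (T1), taken from the slowest growers of a size-graded population. Group SS held the juvenile testes of 5 fish at 332 days (T2), which had also been slow growers and were then kept on a reduced ration. These 13 arrays were chosen by their sample labels from the 35 of the series, and every one of the 24200 sea bass probes entered the comparison. The other groups were fast-growing fish at T1 (F, 7 fish) and, at T2, fish kept fast (FF), moved from fast to slow (FS) or moved from slow to fast (SF), 5 fish each. All fish came from 1 population raised under common temperatures, and both size groups had the same feeding protocol up to T1. The S fish had therefore not been put on reduced food when they were sampled, and age, gonad stage and ration changed together between S and SS. The SS fish were males whose testes had not yet formed spermatozoa. Which sex each S fish would have taken is not known, so some may have been future females. Each gonad was hybridised to its own array, with no pooling, and the fish at T1 and T2 were different animals.

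The sea bass has no sex chromosomes, and sex follows from many genes and from temperature, with fast growers tending to become females. Its gonads stay undifferentiated for months, with germ cells and somatic cells in a simple ridge. When a testis forms, the germ cells divide inside cysts of Sertoli cells, the somatic cells that nurse them, and Leydig cells between the tubules begin to make androgens. Whole gonads were measured, so fewer cells of a type and less RNA per cell cannot be told apart in any value given here. The files used here carry no gene names for the probes, so the labelled tissue could not be checked against marker genes of Sertoli, Leydig or germ cells, and probes are described by their identifier and by the cDNA clone or assembled contig they were designed on, the target.

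The technical state of the arrays differed between the groups. The spike-in level, the mean log2 signal of 10 probes for added control RNA relative to the array's 75th percentile, was 4.40 ± 0.92 in SS (SD, n = 5) and 0.63 ± 1.47 in S (SD, n = 8), a difference of 3.77 (exact permutation test, two-sided, p = 0.00155, with 0.00078 the smallest p that 1287 divisions allow). The SS values were 3.08, 4.88, 4.15, 4.32 and 5.56 for SS1 to SS5, all above every array of the other groups, whose means lay between -1.09 and 0.63. The scanner software called 79.5% ± 4.73 of the sea bass spots well above background in SS (SD, n = 5) and 65.4% ± 7.69 in S (SD, n = 8), a difference of 14.1 percentage points (exact permutation test, two-sided, p = 0.00699). The 2 ranges overlapped, at 71.8 to 84.0% in SS and 56.4 to 74.4% in S. All SS arrays and S5 to S8 were scanned on the first of 2 days, and S1 to S4 on the second. No slide held both S and SS arrays, so slide and group cannot be told apart.

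**Figure D1:**
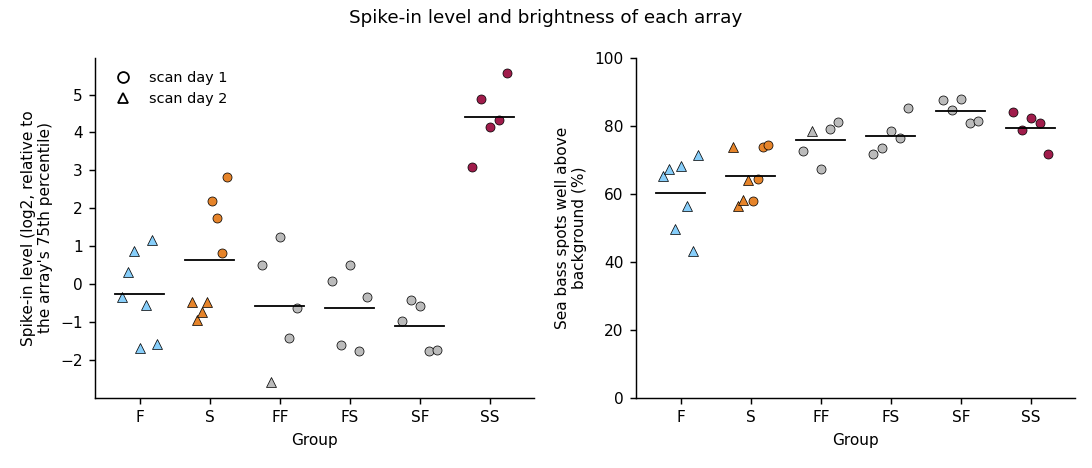
Spike-in level (left, log2 relative to the 75th percentile of the array) and share of sea bass spots well above background (right, %) for each of the 35 arrays by group, with circles for scan day 1, triangles for scan day 2 and lines at the group means. The 5 SS arrays have the highest spike-in levels (3.08 to 5.56), while their share of spots lies between 71.8 and 84.0%.

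Many of the probed transcripts had a different level in the SS testes than in the undifferentiated S gonads. In group SS vs. group S, limma called 5619 of the 24200 probes (23.2%) as differentially expressed (DE), at a fold change (FC) of at least 1.5 and an adjusted p under 0.01. Of these, 3384 were higher in SS (14% of the probes tested) and 2235 were lower (9.24%). A further measure was the number of probes at an unadjusted p under 0.05, which was 11821. The distance between the mean profiles of S and SS was 137.9, larger than under any other division of the 13 arrays (exact permutation test, p = 0.00078, the smallest possible). The calls were not spread evenly over brightness. With the probes divided by mean level over S and SS into 10 classes of 2420, 0.0413% of the dimmest class were called, 41.7% of class 9 and 41.0% of the brightest. The mean levels of the dimmest class reach only 7.34, so a probe with a large change can hardly lie in it. Its low share is in part fixed by this division. The median log2 change over all probes was 0.02.

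**Figure D2:**
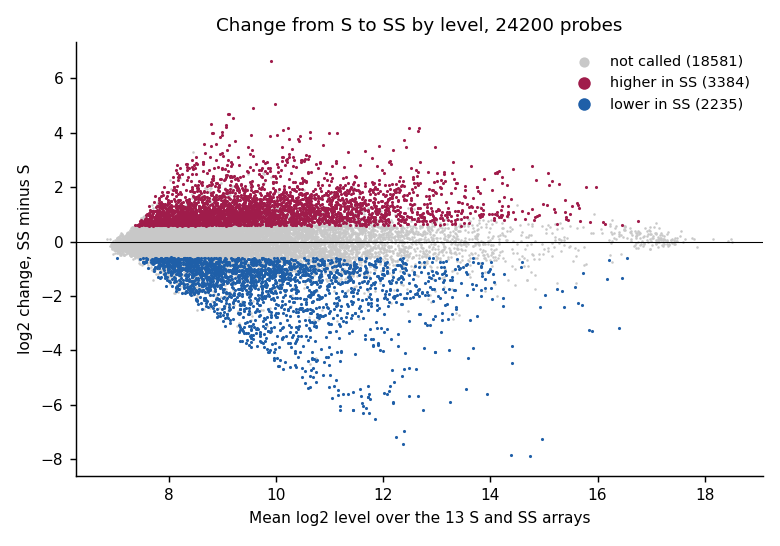
log2 change from S to SS against the mean log2 level over the 13 S and SS arrays, 1 point per probe, with the 3384 probes called higher in SS in red and the 2235 called lower in blue. The falls reach further from 0 than the rises, down to a log2 change of -7.88.

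Rises were more frequent and falls were deeper. The rises had a median FC of 2.07 and a 90th percentile of 3.97, and the falls a median of 2.46 and a 90th percentile of 8.77. A change of at least 2-fold was found for 1861 rises and 1571 falls, one of at least 4-fold for 333 and 561, and one of at least 16-fold for 16 and 105. The 105 falls of at least 16-fold belonged to 46 targets and the 16 rises to 9. At 4362 of the called probes (77.6%) the 5 SS values did not overlap the 8 S values, as was the case at 5320 of all probes (22.0%). Across arrays, the median log2 level of the rising probes lay between 8.84 and 9.11 in S and between 10.14 and 10.46 in SS. That of the falling probes lay between 10.19 and 10.39 in S and between 8.37 and 8.78 in SS. Both sets were called on this difference in these same arrays. The separate levels, and in part the lack of overlap at called probes, therefore follow from the call. Normexp values scaled to the 75th percentile of each array in place of quantile normalization gave 2151 calls, 1101 higher and 1050 lower. With the slide as a random block there were 3351, of which 2261 were higher.

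In the values used here, CUST_4508_PI416070213 on contig SeabassC-CL284Contig1 had the largest rise among probes measured well above background on every S and SS array. Its log2 level in S1 to S8 was 11.07, 11.20, 10.89, 11.37, 11.20, 10.73, 11.04 and 11.00. In SS1 to SS5 it was 15.45, 15.36, 14.61, 15.32 and 15.45. Every testis lay far above every undifferentiated gonad, and the undifferentiated gonads were close to each other. The log2 change was 4.17 (SE 0.15, limma adjusted p = 9.6e-10), an 18.1-fold rise, and the other 2 probes of the contig changed by 4.05 and 4.16. Fast-growing fish had 11.08 ± 0.10 in F (SD, n = 7) and 15.08 ± 0.67 in FF (SD, n = 5), a log2 change of 3.99.

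The second rising probe from another target, CUST_3165_PI416070213 on SeabassC-CL19Contig1, had a log2 level of 8.76, 8.88, 9.00, 9.11, 8.32, 9.15, 8.02 and 7.70 in S1 to S8. In SS1 to SS5 it was 11.95, 11.96, 14.29, 13.56 and 12.18. All SS values were above all S values, with SS3 and SS4 the highest. The log2 change was 4.17 (SE 0.41, limma adjusted p = 4.11e-06), and the other 2 probes of the contig changed by 3.86 and 3.90. Fast-growing fish had uneven levels at T1, from 9.30 to 14.27, with 11.37 ± 2.14 in F (SD, n = 7). In FF it was 12.94 ± 1.58 (SD, n = 5), a log2 change of 1.58 (limma adjusted p = 0.223). The 2 changes differed by 2.60 (SE 1.12), which did not pass the test of the difference (limma adjusted p = 0.263).

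The largest measured fall in the values used here was that of CUST_14587_PI416070213, on the cDNA clone read cDN27P0007K09.F.ab1. In the S gonads it was among the brightest probes, with log2 levels of 18.00, 18.54, 16.84, 17.79, 17.56, 17.98, 17.89 and 17.49 in S1 to S8. In SS1 to SS5 they were 9.22, 9.62, 10.29, 9.63 and 10.67. The groups were wide apart, with an SD of 0.49 in S (n = 8) and of 0.58 in SS (n = 5). The level fell by 7.88 on the log2 scale (SE 0.28, limma adjusted p = 9.6e-10), or 235-fold, and the other 2 probes of the clone changed by -7.85 and -7.24. In fast-growing fish the same probe changed by -8.41.

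The second falling probe, CUST_1831_PI416070213 on SeabassC-CL1266Contig1, was uneven among the S gonads. Its log2 level in S1 to S8 was 10.21, 16.46, 15.43, 12.79, 11.70, 17.22, 14.88 and 14.57. In SS1 to SS5 it was 7.45, 7.58, 7.65, 7.58 and 9.12. S1 and S5 were the lowest of the undifferentiated gonads and S6 the highest, yet all 8 were above all 5 testes. The level fell by 6.28 on the log2 scale (SE 1.02, limma adjusted p = 0.00028), and the other 2 probes of the contig changed by -6.51 and -6.30. The F gonads were also uneven, with 12.14 ± 3.15 (SD, n = 7), against 7.67 ± 0.15 in FF (SD, n = 5). This log2 change of -4.47 in fast fish was not called (limma adjusted p = 0.0132). The changes in slow and fast fish differed by -1.81 (SE 1.70), which did not pass the test of the difference (limma adjusted p = 0.618).

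**Figure D3:**
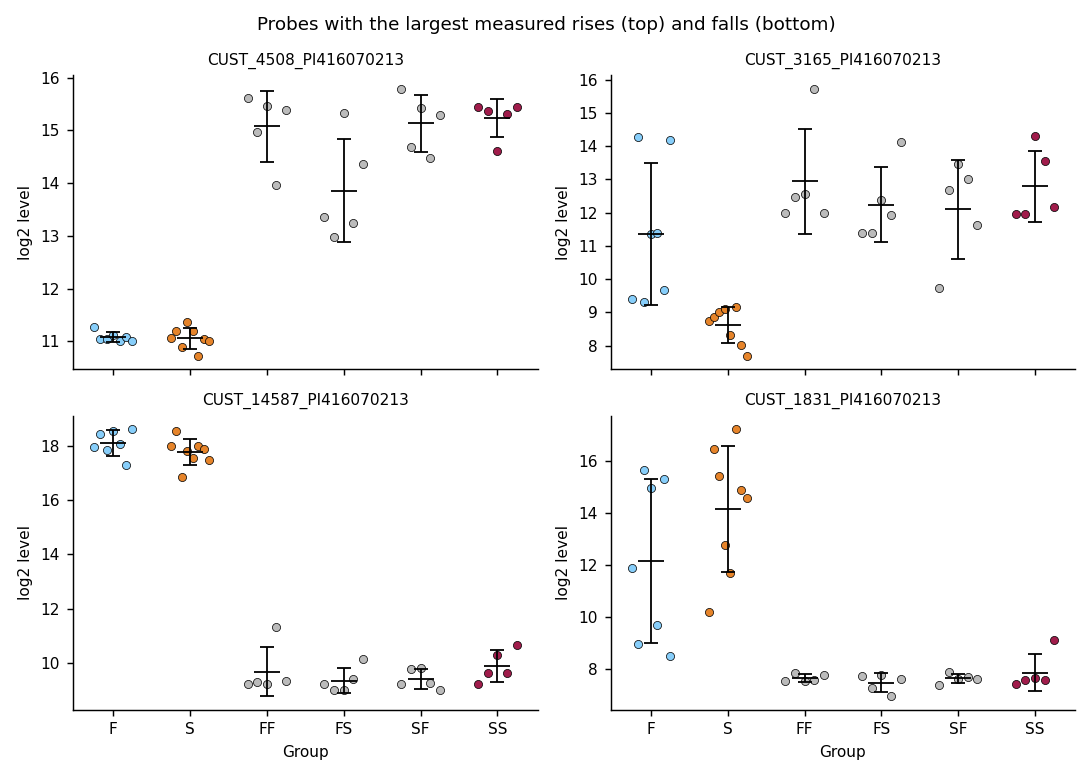
log2 level of the 2 rising (top) and 2 falling (bottom) probes on each of the 35 arrays by group, with the group mean and SD. The vertical axes do not start at 0 and differ between panels. For each probe all 5 SS points lie on 1 side of all 8 S points, and the points of CUST_1831_PI416070213 in S run from 10.21 to 17.22.

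Some transcripts were measurable at 1 stage only. On no S array but on every SS array, 399 probes were well above background, and 179 of them were called higher in SS, where 14% of all probes were. The selection itself fixes that direction, so the count is a description only. For these the rise is a bound, the mean of SS against the higher, on each S array, of the probe's own level and the lowest level of any probe well above background. The bounds had a median of at least 2.11-fold and reached at least 97.0-fold, and 34 were over 4-fold. The reverse, every S array and no SS array, held for 46 probes. Of these, 45 were called lower in SS, where 9.24% of all probes were. The selection fixes this direction too, so this count is also a description only. Their bounds had a median of at least 6.57-fold, with the highest at least 31.5-fold. The SS arrays had the larger share of measurable spots, and its part in the first of these counts was not tested. Among the 11778 probes well above background on all 13 arrays, 3987 were called, 2289 higher and 1698 lower in SS. Of all 24200 probes, 5619 (23.2%) were called.

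Probes on 1 target moved together. For the 6127 targets with 3 probes, the log2 changes of pairs of probes correlated at 0.925 to 0.948 across targets, which are not independent replicates. Of the 1940 such targets with a called probe, 654 had all 3 probes higher in SS and 377 all 3 lower. A further 381 had 2 probes called in 1 direction, 525 had 1 called probe, and 3 targets had probes called in opposite directions. With 1 value per target, limma called 2595 of 11705 targets (22.2%), 1490 higher and 1105 lower.

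The transcripts that fell differed more among the undifferentiated gonads than among the testes. The SD between arrays was larger in S than in SS at 65.1% of all probes, with medians of 0.29 in S and 0.22 in SS. The S arrays span both scan days and the SS arrays 1, and with the SD of S taken within days, as deviations from the mean of each day, the share was 50.9% and the median 0.23. Among the falling probes it was larger in S at 83.1%, with medians of 0.50 and 0.23, and within days at 73.9%, with a median of 0.39 in S. Among the rising probes it was larger in S at 39.3%, with medians of 0.26 and 0.30, and within days at 26.7%. Falling probes were brighter in S and rising probes in SS, so in both sets the larger median SD lay in the brighter group. The part of level in these differences of SD was not tested. A range over 16-fold among the arrays of 1 group was found for 416 probes in S, of which 153 fell and 3 rose. In SS it was found for 67 probes, of which 1 fell and 11 rose. Of all probes, 9.24% fell and 14% rose. A range can only grow as arrays are added, and S had 8 arrays over both scan days, SS 5 on 1 day. Ranges were not taken within days, so the counts of 416 and 67 are a description only. The falls of at least 16-fold had a median SD of 1.83 in S and 0.33 in SS.

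A set of probes followed CUST_1831_PI416070213 from fish to fish in S. This set was chosen after its values were seen, as the probes with a range over 16-fold in S whose level correlated with that of CUST_1831_PI416070213 at r over 0.9 across the 8 S arrays. It held 32 other probes of 13 targets, among 415 probes of that range. Their mean log2 level in S1 to S8 was 8.89, 15.47, 13.54, 11.12, 10.06, 16.43, 12.56 and 12.32, and in SS1 to SS5 it was 7.87, 8.06, 8.00, 7.96 and 8.57. S1 was close to the testes, and S2 and S6, which were scanned on different days, were the highest. In the test between groups 19 of the 32 were lower in SS and 0 higher, with a median log2 change of -4.68, while 9.24% of all probes and 36.8% of the 416 with a range over 16-fold in S were lower. The reference probe was named for its fall, so the direction of the set follows in part from its choice. Of the 17 probes of the set on cDNA clones, 10 carried the clone prefix cDN34, as did 872 of all 24200 probes. The 32 probes lie on 13 targets, so these 10 are not independent, and the count is a description only.

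The clone prefixes, 14 series of names from cDN22 to cDN35, had different shares of rises and falls. What a prefix stands for is not given in the sources used here. Of the 1095 probes with prefix cDN23, 21.0% were higher in SS and 1.92% lower, and of the 891 with cDN24, 20.5% were higher and 3.82% lower, beside 14% and 9.24% of all probes. Contigs, with 7619 probes, had 18.1% higher and 11.9% lower. The other 12 prefixes had between 9.19 and 13.2% higher and between 4.43 and 13.5% lower. cDN23 and cDN24 were singled out from these shares, in these same data. The median log2 change was 0.18 for cDN23 and 0.33 for cDN24, against 0.02 for all probes. In the fish kept fast, which share no array with S and SS, the shares for FF vs. F were 19.4% higher and 1.74% lower for cDN23, and 21.2% and 4.83% for cDN24. Over all probes they were 15.2% and 9.39%. Of the cDN23 rises in slow fish, 150 were also called higher in FF vs. F, 65.2% of the rises in slow and 70.8% of those in fast fish. For cDN24 there were 134, or 73.2% and 70.9%. Median log2 levels were 8.05 for cDN23 and 8.13 for cDN24, against 8.52 for all probes. Well above background on all 13 arrays were 32.0% of the cDN23 and 33.4% of the cDN24 probes, beside 11778 of all 24200. In level classes 5 and 6, 27.7% of 231 cDN23 probes and 27.9% of 183 cDN24 probes were higher in SS, beside 15.4% of all 4840 probes there. The part of brightness in these shares was not tested. Counted by target, 20.4% of 367 cDN23 targets were higher in SS and 2.18% lower, and 19.3% of 300 cDN24 targets were higher and 3.67% lower. Over all 11705 targets, 12.7% were higher and 9.44% lower. Under 75th percentile scaling of normexp values the shares were 7.21% higher and 0.548% lower for cDN23 and 7.86% and 2.36% for cDN24, beside 4.55% and 4.34% of all probes. With the processed signal they were 33.4% and 3.11% for cDN23 and 35.9% and 3.93% for cDN24, beside 19.1% and 11.5% of all probes.

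**Figure D4:**
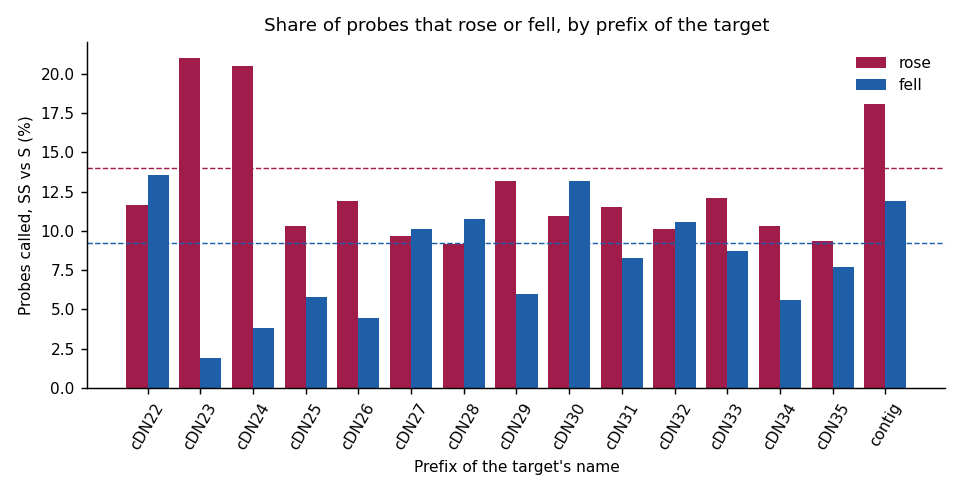
Percentage of probes called higher (red) or lower (blue) in SS than in S for each clone prefix and for the contigs, with dashed lines at the percentages over all probes (14% and 9.24%). cDN23 and cDN24 have the tallest red bars (21.0% and 20.5%) and the shortest blue ones (1.92% and 3.82%).

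The change of the slow fish was set beside that of the fast fish, FF vs. F, for which limma called 5939 probes (24.5%), 3667 higher (15.2%) and 2272 lower (9.39%) in FF. The log2 changes correlated at 0.864 across the 24200 probes, which are not independent and which share the arrays' platform and the 2 ages. All F arrays were scanned on the second day, and all FF arrays except FF2 on the first. Age and scan day therefore went largely together in FF vs. F, and in part in SS vs. S. The part of scan day in the correlation and in the shared calls was not tested. Higher at T2 in both were 2435 probes, 72.0% of the rises in slow and 66.4% of those in fast fish. Lower in both were 1331, 59.6% and 58.6% of the falls, and 0 probes were called in opposite directions. At the probes that rose in slow fish the median log2 change in fast fish was 0.97, and at those that fell it was -1.17. All 105 falls of at least 16-fold had a negative change in FF vs. F, with a median of -4.08, and 65 of them (61.9%) were called. Of all 2235 falls, 2200 (98.4%) had a negative change there and 59.6% were called. Comparisons that share arrays with these gave similar numbers of calls, 6225 for SF vs. S (25.7%) and 6194 for FS vs. F (25.6%). Of those for SF vs. S, 3946 were higher (16.3%) and 2279 lower (9.42%), and of those for FS vs. F 3524 were higher (14.6%) and 2670 lower (11%). With the scanner software's processed signal the balance turned in both, to 4854 higher and 5041 lower in SF vs. S and 3204 higher and 4888 lower in FS vs. F.

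The number of probes at which slow and fast fish differed in their change with age depended on the settings. In limma's test of the difference, (SS minus S) minus (FF minus F), 17 probes were called (0.0702%), 15 with a higher (0.062%) and 2 with a lower change (0.00826%) in slow fish, and 3796 had an unadjusted p under 0.05. The count was 166 with array weights (108 higher and 58 lower), 42 with all 6 groups in 1 fit and 41 with control spots kept in the normalization, and 2 with the slide as a random block. Of the 5619 probes called in slow fish, 1853 were not called in fast fish (949 higher and 904 lower in SS), and 15 of those 1853 passed the test of the difference.

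The 15 probes had a higher mean in SS than in each of the other groups. They were chosen by a larger change in slow than in fast fish. Their height over S, F and FF follows in part from that choice, so these counts are a description only. Their log2 changes lay between 0.65 and 4.19 in slow fish (median 2.93) and between -0.43 and 0.70 in fast fish. At 12 of them every SS array was above all 30 other arrays, as at 45 of all probes (0.186%). At the other 3 single arrays overlapped, and the mean of SS led that of the next group by 0.28 to 1.49 on the log2 scale. Their mean log2 level was 10.36, 11.29, 11.09, 11.19 and 12.55 in SS1 to SS5, and on the 30 other arrays it lay between 8.35 and 9.03. The order of the 5 SS arrays was that of their spike-in levels, from SS1 over SS3, SS4 and SS2 to SS5, and the part of the spike-in level in this result was not tested. The 15 probes belonged to 12 targets, 5 of them with 1 probe and 7 with 3. All 3 probes were among the 15 for 1 target. The other 6 targets had 11 further probes. Their log2 changes in slow fish lay between -0.12 and 1.02 with a median of 0.17. Of these 11, 2 were called higher in SS, where 14% of all probes were. All 15 were well above background on every SS array, 5 on every S array and 4 on no S array. The 2 probes with the lower change in slow fish had log2 changes of 0.28 and 0.29 in slow fish and of 1.35 and 1.22 in fast fish (limma adjusted p of the difference 0.00611 and 0.00535). When only probes well above background on every array were tested, 0 were called. Without SS1 the count was 51, of which 48 had the higher change in slow fish, and without FF5 it was 5.

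**Figure D5:**
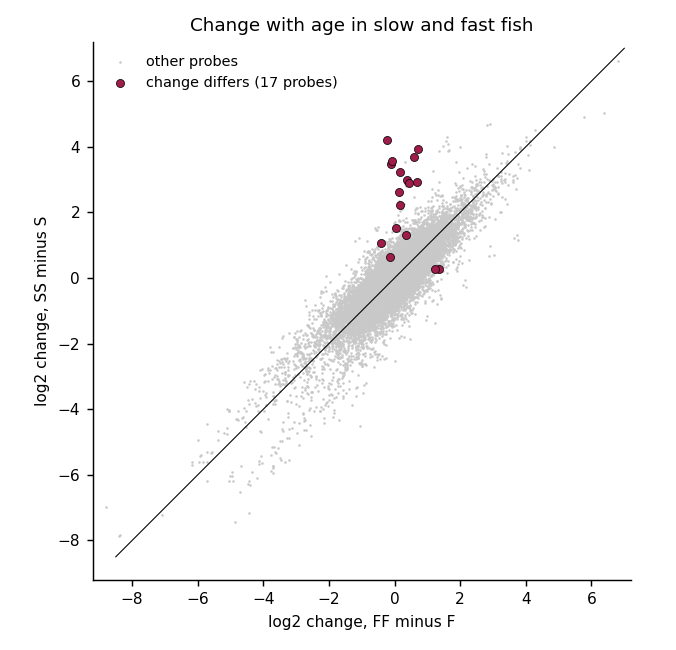
log2 change from S to SS against log2 change from F to FF, 1 point per probe, with the line of equal change. Most points follow the line (r = 0.864), and 15 of the 17 marked probes, whose changes differed in the test, lie above it near 0 on the horizontal axis.

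The 5 SS arrays differed in how far they lay from the mean of S. The number of probes at least 2-fold from the mean of S was 6051 for SS1, 4692 for SS2, 3487 for SS3, 4100 for SS4 and 4725 for SS5, and for single S arrays, set against the other S arrays, between 718 and 1891. SS1 was the farthest and SS3 the nearest. SS1 also had the brightest array (median signal 713, against 202 to 404 for the other SS arrays) and the lowest spike-in level of SS. Every testis had its own array, so differences between fish and between arrays cannot be told apart here. The part of brightness and spike-in level in this order was not tested. The first principal component of the 13 arrays (54.6% of the variance) ran from -68.2 to -37.9 in S and from 68.5 to 104.9 in SS, with SS1 at the end. The third (8.23%) spread the SS arrays, from 60.8 for SS1 to -47.3 for SS5. Clustered into 2, the arrays fell into S and SS. Without SS1 and SS5, the arrays with the lowest and highest spike-in level, a setting added with the data in view, limma called 4156 probes, 2922 higher and 1234 lower in SS.

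The second component (14.7%) separated the S gonads by scan day, with scores from 16.1 to 62.3 for S1 to S4 and from -56.4 to -21.7 for S5 to S8, while the SS arrays lay between -12.3 and 6.2. Between the S arrays of the 2 days limma called 651 probes (2.69%), 313 higher (1.29%) and 338 lower (1.4%) on the second day, while 9693 had an unadjusted p under 0.05. With the processed signal there were 618 calls, 81 higher and 537 lower. Fish, slide and day cannot be told apart there, as each slide with S arrays was scanned on 1 day. The spike-in level of S lay between 0.83 and 2.82 on the first day and between -0.93 and -0.46 on the second. Against the 4 S gonads of the first day alone, the day of the SS arrays, 5390 probes were called, and against the 4 of the second day 5888. Called in both of these and against all 8 S gonads were 3391 probes, 60.3% of the 5619, with 2133 higher and 1258 lower in SS. All 5619 had the same direction against either day. These comparisons share the SS arrays, and the 4 S gonads of each day are part of the 8. Such agreement is therefore largely fixed by the call and is a description only. The 4 named probes passed the test against each day alone, with log2 changes of 4.24 and 4.10 for CUST_4508_PI416070213, 4.49 and 3.85 for CUST_3165_PI416070213, -7.85 and -7.91 for CUST_14587_PI416070213, and -6.72 and -5.85 for CUST_1831_PI416070213.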

How the data were processed

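RNA of each gonad was labelled with Cy3 and hybridised to a custom 1-colour Agilent array. The authors deposited the scanner output, in which spot and background intensity are linear and not normalized between arrays (Feature Extraction 10.7.3.1 in the file headers), and a matrix of log2 values that they had corrected by normexp, quantile normalized and summarised by probe. Groups followed the sample labels, and 0 columns of per-sample values were left unmapped. The fish number in the labels does not pair S with SS: deviations of same-numbered arrays correlated at -0.04 to 0.14.

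Median spot and background intensities were corrected by normexp (offset 50, limma 3.58.1, R 4.3.3, with version 1.17.8 of data.table), control spots (1417) were left out, and the 43803 sea bass spots were quantile normalized on the log2 scale over all 35 arrays. Flagged spots (1076 on the S and SS arrays) were dropped, 0 spots were saturated, and the median of a probe's spots was used. Within 0.1 of these values lay 97.7% of the deposited log2 values of S and SS, and 99.9% within 0.1 of values normalized with control spots kept. All probes met the filter of a foreground at least 2 times the background. Arrays have no counting depth. The number of arrays limits precision, as does brightness, with median signals of 125 to 238 in S and 202 to 713 in SS over backgrounds of 16 to 23. Pairs of S and SS arrays correlated at 0.740 to 0.987, so none was a copy.

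Pairs of groups were tested with lmFit and eBayes of limma without covariates, called where the fold change reached 1.5 and the p adjusted over all probes (Benjamini-Hochberg) was under 0.01, and the difference of 2 changes by a contrast over S, SS, F and FF. The p-values measure the spread between arrays of the same group, each of 1 fish. That spread holds effects of slide and scan day only where these vary within a group. A shift between the slides of S and those of SS lies in the difference itself, and the p-values do not cover it. The paper describes a separate tank for each ration group after T1, so tank and ration cannot be told apart at T2. Single values were tested by exact permutation over arrays. Of the 24200 probe names, 0 matched RefSeq's list of 30274 genes, so the planned marker lists could not be used, and probe sequences were not used here. By the rule for this case, 2 rising and 2 falling probes are named: the largest changes among called probes that were well above background on every S and SS array and whose target had another probe called the same way, the second from another target. The members and lists were chosen with earlier results of these data known. The steps were tested on simulated data. Alternatives were other background corrections, signals, scalings, filters, spot summaries, all 6 groups in 1 fit, array weights, slide, scan day or replicate number in the model, other thresholds, 1 value per target, the authors' matrix and each array left out in turn. Added with the data in view were control spots kept together with the S arrays of the first day, the joint removal of SS1 and SS5, the SD of S within scan days, and the authors' matrix, kept control spots or the processed signal for the other pairs of groups and for the scan days of S. Plots came from matplotlib 3.10.9 (Python 3.11.15).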

Additional observations from a re-analysis of the deposited data

Results flagged for a closer look

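In CUST_4508_PI416070213, SS3 (14.61) stood apart from the other SS testes, whose next value was 15.32, and in CUST_1831_PI416070213 SS5 (9.116) stood apart, with the next value at 7.65. Of the 14 groups of values looked at for such a sample, 2 held one, and chance finds about 1 in 20. SS3 was still above all S gonads for the first probe and SS5 below all of them for the second. The change with age differed between slow and fast fish at 17 probes in limma's test of the difference, 15 of them with the highest group mean in SS, whose arrays also carried the highest spike-in levels.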

How the results depend on the processing

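The 4 named probes kept their direction and their call under all 34 alternatives tried for each. The 4 probes were picked as the largest called changes in these same data, and the alternatives reuse the same arrays. This stability of direction and call is therefore largely fixed by that choice and is a description only. The order by size moved. With the processed signal the log2 changes were 3.84 for CUST_4508_PI416070213 and 4.94 for CUST_3165_PI416070213, and -8.83 for CUST_14587_PI416070213 and -8.88 for CUST_1831_PI416070213. With the authors' matrix they were 3.72, 4.06, -7.95 and -6.33. For SS vs. S, the count of 5619 probes lay between 3963 and 7392 under the other settings by probe, with these exceptions. It was 2151 with normexp values scaled to the 75th percentile and 3351 with the slide as a random block. With limma's treat against a fold of 1.5 it was 1734, and at a fold change of 2 it was 3432. With 1 value per target the unit changed, and 2595 of 11705 targets were called (22.2%), beside 23.2% of the probes. With each array left out in turn the count of probes ranged from 4663 to 5616. The replicate block, for fish numbers that do not pair the samples, gave 3963 calls for SS vs. S and 10 for the difference between slow and fast fish, the latter by more than 1.5 times fewer. That difference, 17 probes, was 6 with 75th percentile scaling of normexp values, 41 with control spots kept, 27 with the authors' matrix, 0 with probes well above background on every array, 42 with all 6 groups in 1 fit, 166 with array weights, 2 with the slide as a random block and 4 with treat. It ranged from 5 to 51 with each array left out, moving by over 1.5 times without any array of S, SS, F or FF other than F2, F3, S6, S8, SS4 and SS5. The processed signal gave 9895 calls for SF vs. S and shifted the median log2 change of all probes from S to SS to 0.12. The difference in measurable spots was 0.0200 points (exact permutation test, p = 0.793) when a spot needed only 2 times its background. On every S and SS array 99.4 to 100% of the spots met that limit, so it could hardly show a difference. The causes of the shifts between settings were not tested. The distance between S and SS stayed between 131.8 and 231.1 and the difference in spike-in level between 3.48 and 4.10 log2 units, each with an exact permutation p under 0.05. Dim probes limit what could be measured, with 1689 probes well above background on no S or SS array.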
